A study of Mus musculus with 6 samples.

Results

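Branched-chain amino acid breakdown is described here through 10 genes, which were taken by name from the pathway and not by their values. They are Bcat2, Bckdha, Bckdhb, Dbt, Bckdk, Ppm1k, Ivd, Mccc1, Mccc2 and Auh. All 10 were present among the 54532 genes of the count table, and all 10 were among the 14774 genes that passed the filter on low counts. RNA came from the left ventricle of 6 male mice, 8 to 10 weeks old at surgery, all of which had aortic banding (AB), a narrowing of the aorta that loads the ventricle with pressure. Tissue was taken 4 weeks later, and 1 poly-A selected library was made per sample. The 3 transgenic (TG) mice have the genotype HINT2CTG-Myh6Cre, in which a human HINT2 coding sequence follows a CAG promoter and a floxed stop, and a tamoxifen-dependent Cre under the Myh6 promoter removes that stop in cardiomyocytes. The 3 non-transgenic (NTG) controls are given as C57BL/6J, and whether they carried Cre or received tamoxifen is not given in the sources used here. HINT2 is a nucleotide-binding hydrolase of mitochondria. Sham-operated hearts were not analysed here, so each comparison sets TG against NTG under pressure load.

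Leucine, isoleucine and valine are broken down inside mitochondria. A transaminase first turns them into keto acids, and the branched-chain keto acid dehydrogenase complex then removes carbon dioxide and makes acyl-CoA, a step that cannot be reversed and that a kinase switches off and a phosphatase switches on. Leucine then takes a branch of its own that ends in acetyl-CoA and acetoacetate, while valine and part of isoleucine feed the citrate cycle through propionyl-CoA. In the heart the pathway is known for lower activity under pressure overload and in failure, with a rise of the keto acids.

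Levels are given as CPM, the counts scaled to a common library size with TMM factors. All 10 genes had a higher mean in TG than in NTG hearts, by 1.18-fold for Bckdk to 1.505-fold for Ppm1k, but none passed the test. Of the 14774 genes tested, 48.7% had a fold change above 0. A call asked for an adjusted p under 0.05 together with an absolute log2 fold change over 0.5. edgeR's quasi-likelihood test called 0 of the 10 genes, and 0% of all genes. At an unadjusted p under 0.05, 7 of the 10 were higher in TG, against 8.83% of all genes tested. DESeq2 called 0 of the 10, against 1.54% of all genes called higher, and limma-voom called 0 of them and 1 gene in the whole table. The smallest adjusted p of any gene in the edgeR test was 0.196, a value that 629 genes shared. The study describes 3 mice a group, the labels only number the libraries, and the p-values measure the spread between these libraries.

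Libraries held 14863568 to 17581220 counts on genes, and no 2 of them agreed within sampling noise. The transgene is a human sequence, and how many of its reads were counted on mouse Hint2 was not tested. Mouse Hint2 had 12, 545 and 559 counts in NTG 1, 2 and 3 and 793, 828 and 859 counts in TG 1, 2 and 3. The library labelled NTG 1 therefore stood far below the other 2 controls in the gene that was targeted. Whether this library is mislabelled was not tested, and it is kept as a control in every NTG mean. The main results and the medians of the pathway lists are also given without it. Over all genes it was also nearer to the TG libraries than to the other controls, with a chi-square per gene of 17.9, 22.0 and 28.3 against TG 2, TG 1 and TG 3 and of 33.6 and 71.4 against NTG 3 and NTG 2. The log2 fold change of Hint2 was 1.33 (SE 0.86, edgeR adjusted p = 0.433) with all libraries and 0.77 (adjusted p = 0.0212) without NTG 1. Defining markers of cardiomyocytes, the muscle cells of the heart, were abundant in every library, while markers of atrial tissue summed to 2.18 and 2.20 CPM in NTG 2 and NTG 3 and to 4.54 to 167 CPM in the other 4 libraries.

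Promoters are shown for the 5 genes with at least 2 matches to the CCAAT box, as a description of their sequence. The set of RefSeq (GRCm38.p6) windows used here covered 9 of the 10 and lacked Dbt. In the 250 bases before the start, the letters CCAAT, read on both strands, occurred in 6 of the 9, against 33.8% of all 32851 windows of that length. At least 2 matches occurred in 5 of the 9, against 10.1% of all windows. Ivd held 4, against 0.840% of all windows with 4 or more. The 5 genes with at least 2 matches are printed 5′ to 3′ along the gene, with each CCAAT, or ATTGG where it lies on the other strand, in capitals. The last base stands next to the RefSeq start except for Ivd, where the 40 bases nearest to the start are left out and hold the fourth match, 23 bases before the start. The windows are Ivd at chr2:118861844-118861953 on the + strand, Mccc1 at chr3:36000679-36000828 on the - strand, Mccc2 at chr13:100015640-100015789 on the - strand, Bckdhb at chr9:83924987-83925136 on the + strand and Ppm1k at chr6:57535488-57535637 on the - strand.
Ivd: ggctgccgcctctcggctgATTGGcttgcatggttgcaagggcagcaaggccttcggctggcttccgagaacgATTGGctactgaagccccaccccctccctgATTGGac
Mccc1: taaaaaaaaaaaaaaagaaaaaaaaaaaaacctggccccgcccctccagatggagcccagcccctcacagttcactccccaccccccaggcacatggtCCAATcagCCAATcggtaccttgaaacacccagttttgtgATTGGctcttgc
Mccc2: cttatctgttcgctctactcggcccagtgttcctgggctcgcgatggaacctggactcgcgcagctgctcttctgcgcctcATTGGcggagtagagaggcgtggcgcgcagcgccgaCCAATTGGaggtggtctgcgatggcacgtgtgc
Bckdhb: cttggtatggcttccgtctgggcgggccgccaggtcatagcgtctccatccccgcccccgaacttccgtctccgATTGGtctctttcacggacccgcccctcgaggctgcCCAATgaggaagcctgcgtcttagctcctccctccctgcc
Ppm1k: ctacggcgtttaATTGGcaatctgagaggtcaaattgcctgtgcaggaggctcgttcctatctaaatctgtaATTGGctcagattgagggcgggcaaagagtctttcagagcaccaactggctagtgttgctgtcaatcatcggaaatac

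The matches of Mccc1 began 52, 44 and 12 bases before the start, and the first pair are 8 bases apart. In Mccc2 the match at 69 bases stands alone, while those at 33 and 30 bases overlap in 1 palindrome that reads the same on both strands. Bckdhb had its matches at 76 and 40 bases and Ppm1k at 138 and 78 bases. Bckdk held 1 match, and Bcat2, Bckdha and Auh held 0. The box CACCC, which factors of the KLF family can bind, occurred in 6 of the 9 windows against 52.0% of all windows. The element TNAAGGTCA of oestrogen-related receptors occurred in 0 of the 9 (1.14% of all windows), and the NRF1 core GCGCATGC likewise in 0 (2.26%). These letters describe the sequence, and binding was not measured.

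Bcat2 encodes the mitochondrial transaminase that takes the amino group off all 3 amino acids (chr7:45570153-45589711, + strand, GRCm38). It had 68.3, 55.3 and 61.4 CPM in NTG 1, 2 and 3 and 87.3, 74.6 and 81.7 CPM in TG 1, 2 and 3. Every TG heart lay above every NTG heart. The means were 61.7 ± 6.47 CPM in NTG and 81.2 ± 6.36 CPM in TG (SD, n = 3 each). The log2 fold change was 0.40 (SE 0.11), and the difference did not pass the test (edgeR adjusted p = 0.196). Bcat2 had the smallest standard error but one of the 10 genes and shared the smallest adjusted p of the whole table.

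Bckdha and Bckdhb encode the α and β subunits of the E1 component, the decarboxylase of the dehydrogenase complex. Bckdha (chr7:25629946-25658981, - strand) had 46.8, 29.4 and 43.5 CPM in the NTG hearts and 53.3, 50.4 and 62.6 CPM in the TG hearts. The groups did not overlap, with NTG 2 well below the other NTG libraries. Its log2 fold change was 0.48 (SE 0.18, edgeR adjusted p = 0.227). Bckdhb (chr9:83925145-84124240, + strand) had 30.5, 17.4 and 21.7 CPM in NTG and 36.9, 28.8 and 37.9 CPM in TG, so that TG 2 lay below NTG 1 and the groups overlapped. Its log2 fold change of 0.58 (SE 0.21, adjusted p = 0.224) was the second highest of the 10.

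The ratio of the E1 subunits within a library does not depend on how libraries are scaled. Bckdha counts over Bckdhb counts were 1.53, 1.69 and 2.01 in NTG and 1.45, 1.75 and 1.65 in TG. The groups overlapped, and the log2 ratio differed by -0.11 (exact permutation test over libraries, two-sided p = 0.5, where 0.1 is the smallest p that 3 against 3 allows).

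Dbt encodes E2, the transacylase that forms the core of the complex and passes the branched acyl group from lipoic acid to coenzyme A (chr3:116513070-116549981, + strand). It had 48.5, 29.8 and 32.3 CPM in NTG and 52.6, 42.6 and 50.1 CPM in TG. NTG 1 lay within the range of the TG hearts and far above the other 2 controls. The log2 fold change was 0.40 (SE 0.19, edgeR adjusted p = 0.3005), the highest adjusted p of the 10.

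Bckdk and Ppm1k encode the kinase and the phosphatase of the complex, which act on the same E1 α subunit in opposite senses. Bckdk (chr7:127904082-127910221, + strand), whose product phosphorylates and inactivates the complex, had 76.5, 63.8 and 72.6 CPM in NTG and 88.4, 78.2 and 83.9 CPM in TG. Its groups did not overlap, yet its log2 fold change of 0.23 (SE 0.10, edgeR adjusted p = 0.262) was the lowest of the 10. Ppm1k (chr6:57506502-57535468, - strand), whose product removes the phosphate, had 35.3, 23.5 and 25.7 CPM in NTG and 43.8, 32.0 and 51.3 CPM in TG. TG 2 lay below NTG 1. Its log2 fold change of 0.59 (SE 0.21, adjusted p = 0.221) was the highest of the 10, with the widest spread in TG relative to its mean (42.3 ± 9.75 CPM, SD, n = 3).

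Kinase counts over phosphatase counts were 2.17, 2.71 and 2.83 in NTG and 2.02, 2.45 and 1.64 in TG. The lowest ratios were those of TG 3 and TG 1, and TG 2 lay between NTG 1 and NTG 2. The geometric means were 2.55 in NTG and 2.01 in TG, a log2 difference of -0.35 (exact permutation test, two-sided p = 0.2, smallest possible 0.1). The groups overlapped, and the difference did not pass the test. This ratio was 1 of 3 computed, and with a library left out in turn its difference ran from -0.20 without TG 3 to -0.49 without TG 2. Without NTG 1 the groups were apart, with a difference of -0.46 (exact permutation test, two-sided p = 0.2).

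Ivd, the first enzyme of the leucine branch, oxidizes isovaleryl-CoA and passes the electrons to the electron transfer flavoprotein (chr2:118861954-118882909, + strand). It had 247, 135 and 190 CPM in NTG and 282, 240 and 273 CPM in TG. TG 2 lay just below NTG 1, and the groups overlapped for that reason alone. The means were 191 ± 56.0 CPM and 265 ± 22.0 CPM (SD, n = 3 each). The log2 fold change was 0.47 (SE 0.21, edgeR adjusted p = 0.270).

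Mccc1 and Mccc2 encode the biotin-bearing α subunit and the β subunit of 3-methylcrotonyl-CoA carboxylase, the next step of leucine breakdown. Mccc1 (chr3:35959312-36000678, - strand) had 58.7, 38.0 and 49.5 CPM in NTG and 73.6, 54.7 and 76.2 CPM in TG. Mccc2 (chr13:99948530-100015639, - strand) had 38.4, 22.8 and 29.5 CPM in NTG and 39.0, 36.4 and 43.8 CPM in TG. In both genes TG 2 lay below NTG 1. The log2 fold changes were 0.49 (SE 0.19, edgeR adjusted p = 0.231) for Mccc1 and 0.40 (SE 0.18, adjusted p = 0.293) for Mccc2. Mccc1 counts over Mccc2 counts were 1.53, 1.67 and 1.68 in NTG and 1.89, 1.503 and 1.74 in TG, with a log2 difference of 0.07 (exact permutation test, two-sided p = 0.5).

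Auh encodes the hydratase of the step after the carboxylase, a protein that also binds AU-rich RNA (chr13:52835119-52929681, - strand). It had 64.2, 42.9 and 48.2 CPM in NTG and 74.6, 64.4 and 75.5 CPM in TG. The groups did not overlap, with TG 2 only just above NTG 1. The log2 fold change was 0.47 (SE 0.15, edgeR adjusted p = 0.211).

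Across the 10 genes, the groups were apart in 4, namely Bcat2, Bckdha, Bckdk and Auh, with all TG hearts above all NTG hearts. Among all genes tested, 11.2% showed that pattern. The median log2 fold change of the 10 was 0.47, against -0.01 over all genes tested, and single members stood between the 77.4th percentile for Bckdk and the 93.5th for Ppm1k of all fold changes.

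**Figure D1:**
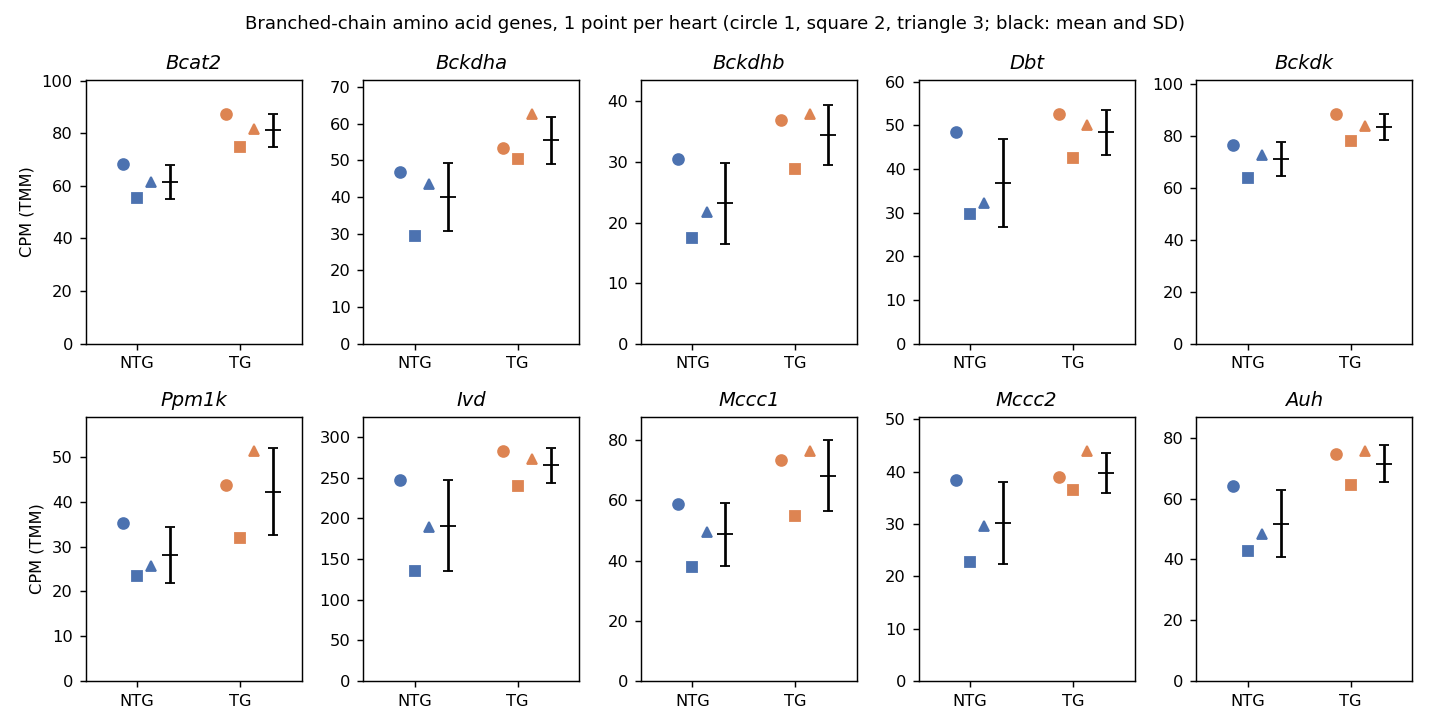
CPM with TMM normalization (vertical axis, from 0) of each gene in the 3 NTG and 3 TG hearts, 1 point per heart, with the group mean and SD in black. The NTG 2 square is the lowest point of all 10 panels, and the groups are apart for Bcat2, Bckdha, Bckdk and Auh.

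The order of the hearts was nearly the same in all 10 genes. NTG 2 was the lowest of the 6 libraries in all 10, NTG 1 was the highest control in all 10, and TG 2 was the lowest TG heart in all 10. The highest of the 6 was TG 3 for 6 genes and TG 1 for 4. As log2 CPM minus the mean of all 6 hearts, the 10 genes averaged 0.08, -0.53 and -0.25 in NTG 1, 2 and 3 and 0.30, 0.05 and 0.35 in TG 1, 2 and 3. Pearson's r of the 45 pairs of genes over the 6 libraries ran from 0.845 for Bckdha with Dbt to 0.994 for Bckdhb with Auh, with a median of 0.950. These correlations hold the group difference and share the libraries and their scaling, and are given as a description.

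Without NTG 1 the 10 genes lay further apart between the groups. NTG 1 was the highest control in all 10, so leaving it out lowers each NTG mean and a wider gap follows from that order. All 10 then had every TG heart above the remaining controls, against 23% of all genes tested, and all 10 had an unadjusted p under 0.05, against 13.7% higher in TG among all genes. The median log2 fold change was 0.64, against -0.01 over all genes. edgeR called 4 of the 10, against 2.67% of all genes called higher. These were Bckdhb at 0.82 (SE 0.16, adjusted p = 0.0332), Ivd at 0.71 (SE 0.16, adjusted p = 0.0470), Auh at 0.65 (SE 0.12, adjusted p = 0.0264) and Dbt at 0.64 (SE 0.12, adjusted p = 0.0315). Bcat2 passed the adjusted p (0.0468) with a log2 fold change of 0.47, below the size asked for. Mccc2 stood just outside at 0.60 (adjusted p = 0.0501), and Ppm1k, Mccc1, Bckdha and Bckdk had adjusted p-values of 0.0609, 0.0747, 0.0855 and 0.1302. DESeq2 without NTG 1 called 8 of the 10, against 5.92% of all genes called higher. Leaving out NTG 2 in place of NTG 1 gave a median of 0.31, and edgeR then called 0 genes in the whole table. Without TG 2 all 10 were also apart, against 20% of all genes tested. Of the edgeR fits with 1 library left out, only the fit without NTG 1 called any of these genes. The number called also depended on the tool.

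**Figure D2:**
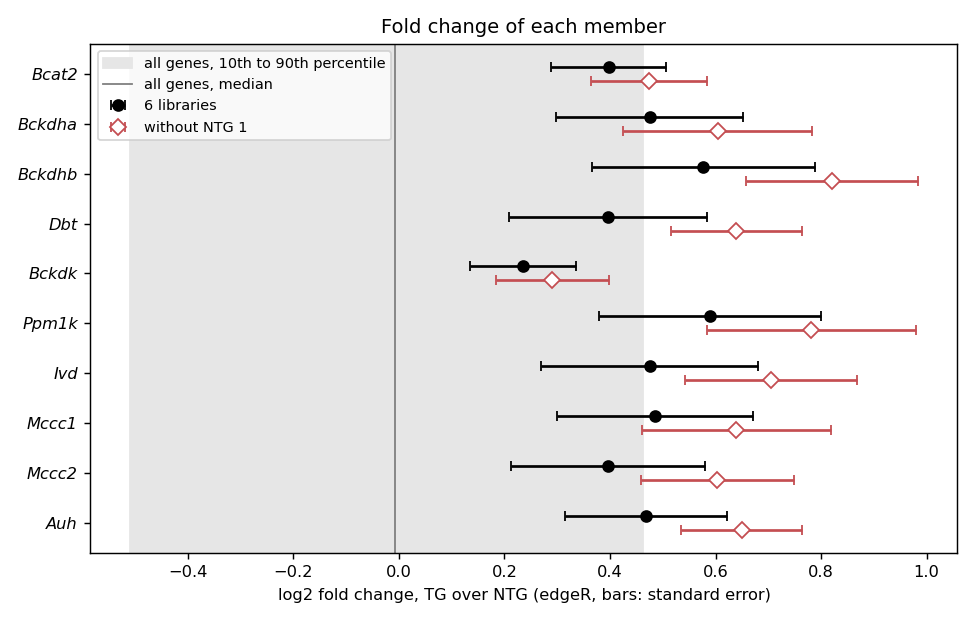
log2 fold change of TG over NTG from edgeR (horizontal axis, with standard errors) for each gene, with all 6 libraries (filled circles) and without NTG 1 (open diamonds), over the 10th to 90th percentile of all genes tested (grey, -0.51 to 0.46). Each diamond lies to the right of its circle, most for Bckdhb, which went from 0.58 to 0.82.

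Levels were compared between genes only per length, as CPM per 1000 bases of the principal transcript. Ivd had the highest level, 52.0 in NTG and 72.3 in TG on average. Auh (39.2 and 54.2) and Bcat2 (34.8 and 45.8) followed, and Ppm1k was the lowest at 5.07 and 7.62. Between them lay Bckdha (21.02 and 29.2), Bckdk (20.8 and 24.5), Mccc1 (19.8 and 27.8), Bckdhb (15.8 and 23.5), Mccc2 (14.2 and 18.7) and Dbt (11.2 and 14.7). In NTG, neighbours in this order were apart in their ranges only between Bcat2 and Bckdha and between Dbt and Ppm1k. In TG they were apart there too, and also between Ivd and Auh and between Mccc2 and Dbt. Bckdha, Bckdk and Mccc1 overlapped one another in NTG, while in TG Bckdha lay above Bckdk in its range and Mccc1 overlapped both. With the length of all exons of the gene model in place of the principal transcript, a choice made after seeing the data, Mccc1 took the lowest place of the 10 and Auh the eighth.

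**Figure D3:**
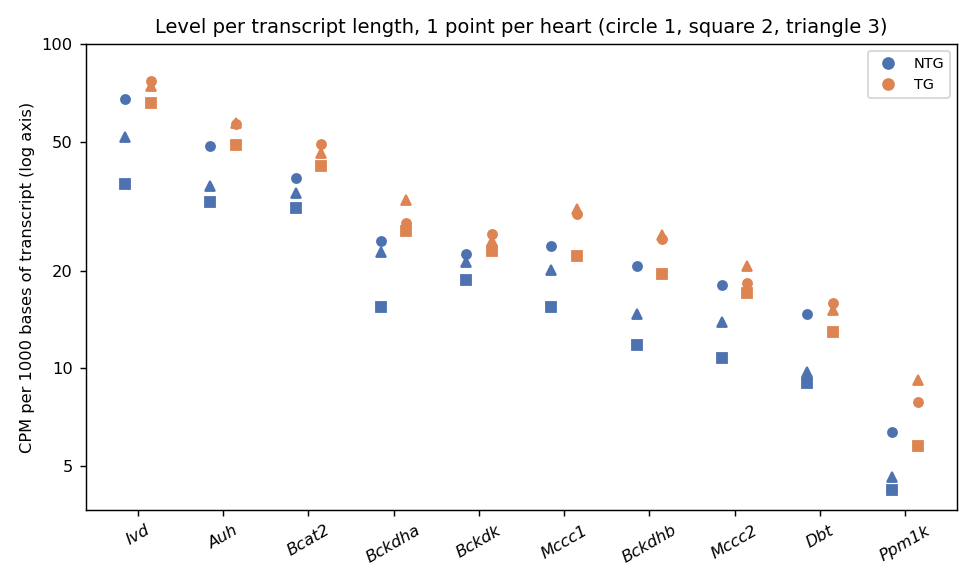
CPM per 1000 bases of the principal transcript (vertical log axis) in each NTG and TG heart, with genes ordered by their NTG mean. Ivd stands at 52.0 and Ppm1k at 5.07 in NTG, and the TG mean lies above the NTG mean in every gene.

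Cell type markers varied across the same hearts. The summed level of the 10 genes was 715, 458 and 574 CPM in NTG 1, 2 and 3 and 832, 702 and 836 CPM in TG 1, 2 and 3. The 6 cardiomyocyte markers (Myh6, Tnnt2, Tnni3, Actc1, Ryr2 and Myl2) summed to 30298, 17928 and 24348 CPM in NTG and 36105, 29081 and 34625 CPM in TG. Both sums were lowest in NTG 2 and, within TG, lowest in TG 2. All 6 of these markers had a fold change above 0, 2 at an unadjusted p under 0.05, with a median log2 fold change of 0.45, or 0.65 without NTG 1. Per 1000 CPM of cardiomyocyte markers, the 10 genes stood at 23.6, 25.6 and 23.6 CPM in NTG and 23.0, 24.2 and 24.1 CPM in TG. On that scale the groups overlapped, and their means of 24.2 ± 1.14 and 23.8 ± 0.641 (SD, n = 3 each) differed by less than either SD. The scale depends on the markers summed, whose log2 fold changes ran from 0.21 for Ryr2 to 0.61 for Tnni3. The median of the 10 genes, 0.47, lay between these, and scales from single markers were not tested. In these bulk libraries, fewer cells of a type and less RNA per cell cannot be told apart.

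Fibroblast markers (Col1a1, Col1a2, Col3a1, Pdgfra, Dcn and Postn) ran the other way, with sums of 4520, 10660 and 6599 CPM in NTG and 2483, 3835 and 2184 CPM in TG. All 6 were lower in TG, each at an unadjusted p under 0.05, with a median log2 fold change of -1.15, or -1.36 without NTG 1. Among all genes tested, 9.76% were lower in TG at that p, and 12.3% had all TG hearts below all NTG hearts. DESeq2 called 4 of the 6, against 2.39% of all genes called lower. All 5 macrophage markers had a fold change below 0, with sums of 298 to 600 CPM in NTG and 254 to 346 CPM in TG. All 5 blood markers were lower, with sums of 1310 to 2245 CPM in NTG and 762 to 908 CPM in TG. Without NTG 1, edgeR called lower 1 fibroblast, 1 macrophage and 5 blood markers, against 2.85% of all genes. Endothelial markers summed to 1227 to 1406 CPM in NTG and 1268 to 1413 CPM in TG, and smooth muscle and pericyte markers to 966 to 1280 CPM and 1127 to 1351 CPM, so that both sums overlapped. Within these lists, single markers were apart, with all TG hearts above all NTG hearts at an unadjusted p under 0.05. They were Kdr at 0.37 of 4 endothelial markers, and Acta2 at 0.42 and Myh11 at 0.70 of 4 smooth muscle and pericyte markers, and DESeq2 called Myh11 (adjusted p = 0.0165). The other markers of these lists lay between -0.61 for Tagln and 0.04 for Rgs5, with Pecam1 at -0.11, Cdh5 at 0.03 and Tek at -0.0016, all with groups that overlapped. Of the 4 adipocyte markers 0 passed the filter, their sum was at most 2.53 CPM, and Lep had 0 counts in every library. The share of counts from mitochondrial-genome genes was 13.4% to 19.2% over the NTG libraries and 16% to 21.5% over the TG libraries. The part of cell makeup in the differences of the 10 genes was not tested.

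**Figure D4:**
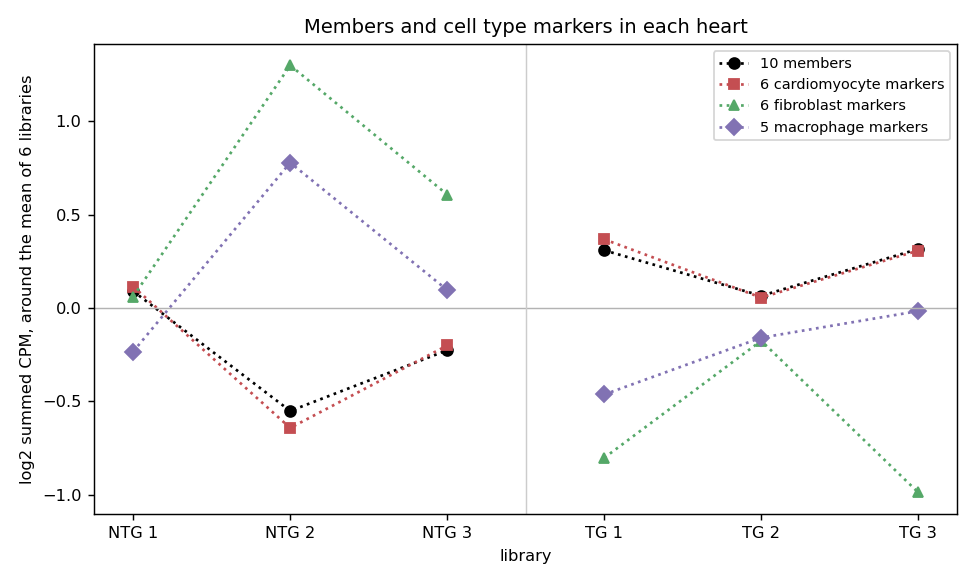
Summed CPM of the 10 genes and of cardiomyocyte, fibroblast and macrophage markers in each heart, as log2 around the mean of the 6 libraries (vertical axis). The sum of the 10 genes runs near that of the cardiomyocyte markers. Both are lowest in NTG 2, where the fibroblast markers are highest at 10660 CPM. The highest heart is TG 3 for the 10 genes and TG 1 for the cardiomyocyte markers.

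The other genes of the pathway were read in the same fit, in lists taken by name. Their counts stand beside the shares of all genes given above, 48.7% above 0, 8.83% higher at an unadjusted p under 0.05 and 2.67% called higher without NTG 1. Of the 8 genes of the valine and isoleucine branch, 8 had a fold change above 0 and 4 an unadjusted p under 0.05, with a median log2 fold change of 0.38, and 0 were called. Hsd17b10, a dehydrogenase of isoleucine breakdown, had 72.2, 59.4 and 60.2 CPM in NTG and 92.0, 78.7 and 91.8 CPM in TG, with groups apart and a log2 fold change of 0.45 (SE 0.11, edgeR adjusted p = 0.196). Echs1, a hydratase shared with fatty acid oxidation, followed at 0.48 (SE 0.18, adjusted p = 0.227) with groups that overlapped. Without NTG 1 the median was 0.51, and 2 of the 8 were called.

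The propionyl-CoA route carries the carbon of valine and isoleucine to succinyl-CoA. All 6 of its genes had a fold change above 0 and 3 an unadjusted p under 0.05, with a median log2 fold change of 0.39. Pccb, the β subunit of propionyl-CoA carboxylase, had 78.2, 52.9 and 63.5 CPM in NTG and 98.95, 86.1 and 100.3 CPM in TG, so that the groups were apart. Its log2 fold change was 0.55 (SE 0.15, edgeR adjusted p = 0.196), and DESeq2 called it (adjusted p = 0.0384). Its partner Pcca, the α subunit, was at 0.43 (SE 0.14, edgeR adjusted p = 0.211). edgeR called 0 of the 6 with all libraries, and called 2 without NTG 1, where the median was 0.53.

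Etfa, Etfb and Etfdh take up the electrons of Ivd and the other acyl-CoA dehydrogenases. All 3 had a fold change above 0, 2 of them at an unadjusted p under 0.05, and their median log2 fold change of 0.58 was the highest of the 7 lists. Etfb had 32.9, 17.2 and 22.9 CPM in NTG and 38.9, 37.3 and 46.3 CPM in TG, with the groups apart and a log2 fold change of 0.75 (SE 0.23, edgeR adjusted p = 0.203). DESeq2 called it (adjusted p = 0.0456). Etfa was at 0.58 (SE 0.20, edgeR adjusted p = 0.213). Without NTG 1 the median of the 3 was 0.78, and edgeR called Etfb at 1.03 (adjusted p = 0.0210) and Etfa at 0.78 (adjusted p = 0.0420).

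Transporters of these amino acids were lower or near 0. Of the 6, 1 had a fold change above 0, beside 48.7% of all genes. The other 5 were below 0, 2 of these at an unadjusted p under 0.05 (9.76% of all genes were lower at that p). The median log2 fold change was -0.15, or -0.24 without NTG 1. Slc7a5, Slc43a2, Slc25a44 and Slc43a1, named after their values were seen, were at -0.03, -0.01, 0.005 and -0.27. In each of them the groups overlapped. With libraries scaled by size alone, 0 of the 6 were above 0. Slc7a8, a light chain of the L-type exchanger of the cell membrane, had 8.74, 12.9 and 11.6 CPM in NTG and 6.92, 7.504 and 7.531 CPM in TG. All TG hearts were below all NTG hearts, and the log2 fold change was -0.60 (SE 0.18, edgeR adjusted p = 0.197), or -0.74 (adjusted p = 0.0399) without NTG 1. Slc3a2, the heavy chain that brings such light chains to the membrane, was at -0.37 (SE 0.13, adjusted p = 0.216).

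The cytosolic transaminase Bcat1, the shared E3 component Dld and the transcription factor Klf15 form a list of 3, of which 2 had a fold change above 0 and 1 an unadjusted p under 0.05, with a median of 0.41. Dld, the E3 that the dehydrogenase complexes share, was at 0.43 (SE 0.18, edgeR adjusted p = 0.259), and Klf15, a known activator of genes of this pathway, at 0.41 (SE 0.28, adjusted p = 0.443). With a library left out in turn, Klf15 ran from 0.14 without TG 3 to 0.64. Without NTG 1 the median was 0.57, and 0 of the 3 were called. Of the 5 genes that attach biotin and lipoic acid, 3 were above 0 and 0 had an unadjusted p under 0.05, with a median of 0.01 that turned to -0.07, with 2 of 5 above 0, when libraries were scaled by size alone. Without NTG 1 it was 0.05, and Lipt2, below 0 with all libraries, was then at 0.05. Lias, which makes lipoic acid on its carrier, was at 0.14 (SE 0.10, adjusted p = 0.444), and Lipt2, a lipoyl transferase, at -0.14 (SE 0.23, adjusted p = 0.769).

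The pyruvate and oxoglutarate dehydrogenases with their kinases and phosphatases are built on the same plan as the branched-chain complex. Of these 12 genes 9 had a fold change above 0, and at an unadjusted p under 0.05 there were 1 higher and 2 lower, beside 8.83% and 9.76% of all genes, with a median of 0.28, or 0.39 without NTG 1. The lower pair were kinases that inactivate pyruvate dehydrogenase, and in both the groups were apart, with all TG hearts below all NTG hearts. Pdk3 was at -0.51 (SE 0.21, edgeR adjusted p = 0.247). Pdk4 had 568, 548 and 761 CPM in NTG and 496, 415 and 514 CPM in TG, a log2 fold change of -0.40 (SE 0.17, adjusted p = 0.255). Pdk1 and Pdk2, the other kinases of that enzyme, named after their values were seen, were at -0.01 and 0.37 with groups that overlapped.

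**Figure D5:**
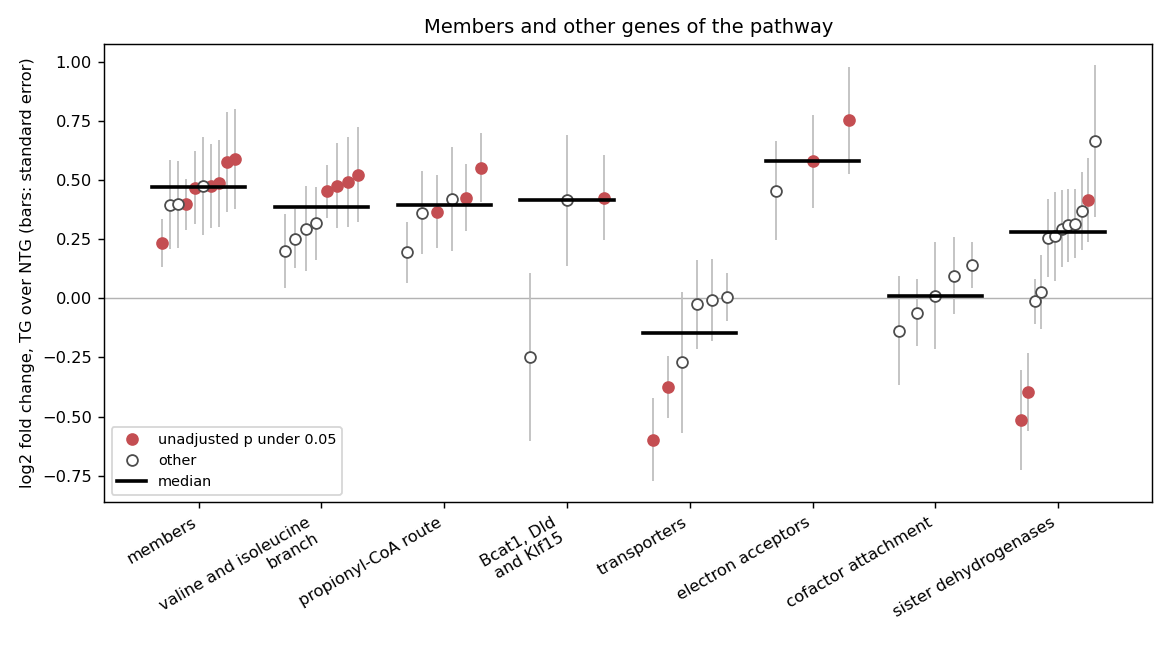
log2 fold change of TG over NTG with standard errors (vertical axis) for the 10 genes and 7 lists of related genes, red at an unadjusted p under 0.05, with the median of each list as a bar. Medians run from -0.15 for transporters to 0.58 for electron acceptors, and the 10 genes have a median of 0.47.

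Genes in the same place can share reads, since the library kit as described does not mark strand. In the annotation, 6 of the 10 genes are overlapped by 12 other genes. The most counted of these was B3gnt8 on the opposite strand of Bckdha, with 72 to 146 counts per library, against 554 to 1014 for Bckdha. Mccc1os, antisense to Mccc1, had 11 to 26 counts, and the others had at most 23.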

How the data were processed

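Poly-A selected RNA of 6 left ventricles was sequenced (Illumina NovaSeq). The authors counted reads per gene with featureCounts, and the deposited values used here are these raw counts, without normalization or pooling. The submitters' processing notes name HISAT2 and the human build GRCh38, whereas gene identifiers are those of mouse, and 98.3% of the 54409 genes found in GENCODE M21 (GRCm38) had identical coordinates, all 10 members among them. The strand setting and the handling of multi-mapped reads are not given in the sources used here. Columns were matched to libraries by their labels, and 0 were left unmatched.

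The main test was that of edgeR 4.0.16 in R 4.3.3 (TMM, filterByExpr, robust quasi-likelihood test, Benjamini-Hochberg adjustment over all genes tested). Alternatives were DESeq2 1.42.0, limma 3.58.1 (voom), other scalings, filters and offsets, a replicate block, and each library left out in turn. Total counts were 14863568 to 17581220, TMM factors 0.929 to 1.073. The precision of a gene comes from the spread of 3 libraries a group, counting error included, drawn towards that of all genes tested. Each edgeR SE is the absolute log2 fold change over the square root of the F statistic. Lengths are those of the APPRIS principal transcript. For promoters the RefSeq start nearest to the gene model's start was used, while the share over all windows counts every start. The tests were first tested on simulated counts.

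All members are named with their values, and in each list of related genes the 2 with the smallest unadjusted p, taken after 1 gene that is not reported here had been left out of its list. Genes were chosen, and lists written, with earlier results of these data known. Scripts used pandas 2.3.3 and matplotlib 3.10.9.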

Additional observations from a re-analysis of the deposited data

How the results depend on the processing

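All 10 genes had a fold change above 0 under each of the 25 alternative fits. The median log2 fold change ran from 0.31 without NTG 2 to 0.64 without NTG 1 with edgeR, and from 0.31 to 0.65 with DESeq2. The number at an unadjusted p under 0.05 ran from 1 to 10 (4.71% to 13.7% of all genes were higher at that p) and the number called from 0 to 8, with edgeR or DESeq2. Beside the fits without NTG 1 (4 with edgeR, 8 with DESeq2), DESeq2 without TG 2 called 1, Ppm1k, beside 291 genes higher and 487 lower in the whole table, and no other fit with a library left out called any. The groups were apart in 4 to 10 genes with a library left out (13.7% to 23% of all genes), with 10 without NTG 1 or without TG 2, and in 3 with upper quartile (11.1%) and 5 with library size scaling (8.67%). The replicate block with a gene length offset called 1 of the 10, Mccc1 (adjusted p = 0.0490), beside 117 genes higher and 139 lower in the whole table. The replicate block alone called 0 with a median of 0.49, while it called 84 genes higher and 147 lower in the whole table. Same-numbered libraries did not deviate together (correlations of 0.08, 0.17 and -0.25), and 2 of the 6 libraries correlated best with their own number, so the numbers were not read as pairs. In the whole table, the counts called higher and lower were 116 and 116 with no low-count filter, 206 and 339 with the likelihood-ratio test and 228 and 353 with DESeq2. Scaling by library size moved the median of all genes to -0.09 and that of the 10 genes to 0.39. The log2 of Mccc1 over Mccc2 per length was 0.49 in NTG and 0.56 in TG with the principal transcript, and -1.27 and -1.20 with the length of all exons, an alternative chosen after seeing the data. With 3 libraries a group an exact test over libraries cannot go below 0.1.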
